A study of Mus musculus with 6 samples.

Results

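The enzymes that write, copy and remove methyl groups on DNA were followed as mRNA in mouse bone marrow-derived macrophages (Mφs) in which a tRNA fragment had been blocked. The set comprised 8 genes chosen by symbol, of 41549 genes in the count table, namely Dnmt1, Dnmt3a, Dnmt3b, Uhrf1, Uhrf2, Tet1, Tet2 and Tet3. All 8 were found, and 7 of them had enough reads to be tested. DNA methylation itself was not measured, so every value is a level of mRNA.

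Bone marrow of wild-type C57Bl/6 N mice was differentiated for 7 days with macrophage colony-stimulating factor. The age of the mice is given as 10 to 12 weeks in the culture methods and as 12 to 14 weeks in the reporting summary. The Mφs were transfected with an antisense oligonucleotide, either a control (Ctr, 3 libraries) or one against 5′tRF-Glu(CTC), which is the 5′ piece of a cleaved glutamate tRNA (αGlu, 3 libraries). For 48 h, both groups then received the cytokines IL-4 and IL-13, which give M2 Mφs, a state linked to the resolution of inflammation. The libraries of a group came from 3 independent experiments, each with marrow of a different animal by the study's general statement on primary cells. Whether a number marks the same animal in both groups is not stated.

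In mammals methyl groups sit mostly on cytosines that are followed by guanine (CpG). DNMT1 copies the pattern onto the new strand after DNA replication, and UHRF1 brings DNMT1 there by binding hemimethylated CpG sites. UHRF2 is the paralog of UHRF1. DNMT3A and DNMT3B set new methyl groups, and the TET enzymes oxidize them as a first step of removal. Uhrf1 and Dnmt1 are known to be expressed mainly in dividing cells, where E2F transcription factors drive the genes of S phase, the time of DNA synthesis. In macrophages TET2 is known to restrain Il6.

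The oligonucleotide is shown because it defines the groups. The first sequence is the stretch of the fragment that was targeted, with capitals for the bases complementary to the antisense, and the second is the antisense.
Targeted stretch of 5′tRF-Glu(CTC): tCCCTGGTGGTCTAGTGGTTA
Antisense: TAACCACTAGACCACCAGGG
The transcripts of the 7 tested members held no long match to the targeted stretch. The longest run complementary to it measured from 7 to 10 bases and the longest identical run 8 or 9 bases. Runs of at least 10 complementary bases, as in Dnmt3a and Tet2, occurred in 4.86% of the tested genes. Identical runs are those the antisense could pair with. Runs of at least 9 identical bases, as in Uhrf1, Dnmt3a, Tet2 and Tet3, occurred in 22.4% of the tested genes.

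Promoters are shown for the members with the widest differences between libraries, as the 250 bases before an annotated start (RefSeq, GRCm38.p6). They were chosen among the annotated starts as stretches that hold no annotated exon, and for Uhrf1 as the one with an E2F-type match. In the Uhrf1 stretch, chr17:56304063-56304312 on the plus strand, capitals mark an E2F-type match. In the Dnmt3a stretch, chr12:3806730-3806979 on the plus strand, capitals mark every CpG.
Uhrf1, second start: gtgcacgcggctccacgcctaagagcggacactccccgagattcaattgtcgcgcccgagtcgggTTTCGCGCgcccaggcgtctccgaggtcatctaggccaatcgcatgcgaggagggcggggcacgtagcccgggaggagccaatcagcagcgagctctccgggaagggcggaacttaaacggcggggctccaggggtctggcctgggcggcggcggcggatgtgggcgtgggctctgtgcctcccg
Dnmt3a, first start: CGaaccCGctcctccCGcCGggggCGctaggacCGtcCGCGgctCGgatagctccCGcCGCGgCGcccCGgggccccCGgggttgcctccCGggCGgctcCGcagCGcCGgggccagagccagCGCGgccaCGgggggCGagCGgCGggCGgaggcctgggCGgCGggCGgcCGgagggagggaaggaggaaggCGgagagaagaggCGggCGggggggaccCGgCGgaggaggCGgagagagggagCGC
The Uhrf1 stretch held 30 CpGs and the Dnmt3a stretch 38. In the windows of 300 bases, which reach 50 bases past the start, the number of CpGs over the number the base composition predicts was 0.959 for Uhrf1 and 0.964 for Dnmt3a, compared with a median of 0.384 over 32851 windows. It was 0.472 at the first start of Uhrf1, and 1.06 and 0.468 at the second and the third start of Dnmt3a. The E2F-type letters searched were TTTGGCGC, TTTGCCGC, TTTCGCGC and TTTCCCGC on both strands. They occurred in 2 of the 13 windows of the 8 members and in 2.26% of all windows. The match in Uhrf1 began 185 bases before the start, and the other 2 matches lay in 1 window of Dnmt1, beginning 219 bases before and 33 bases after its start. Apart from the second start of Uhrf1 and the third of Dnmt1, no window of a member held these letters.

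Total counts ranged from 17912831 to 30386653 per library, and TMM factors, which scale library sizes, from 0.951 to 1.07. The labelled cell type was visible in its markers, and the summed level of 8 macrophage markers was 12590 to 14330 CPM (reads scaled to a common library size) in Ctr and 13422 to 20923 CPM in αGlu. Lymphocyte markers summed to at most 0.346 CPM, and the neutrophil markers Ly6g and Retnlg were at 0 reads in all 6 libraries. Neutrophil markers summed to 106 to 159 CPM in Ctr and to 185 to 609 CPM in αGlu, nearly all from Csf3r, the receptor for granulocyte colony-stimulating factor. αGlu 1 stood apart from αGlu 2 and αGlu 3, and for 11.4% of the tested genes it lay within the Ctr range while the other two lay below it, and for 13.3% they lay above it. Fold changes and calls are therefore given with and without it. The weight given to the fit without αGlu 1 rests on these same values. Its SE and p leave out the spread of αGlu 1 and do not measure that of all 3 αGlu libraries. In these bulk libraries fewer cells of a kind and less RNA per cell cannot be told apart.

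In Ctr Mφs one writer predominated. Dnmt3a had 64.7 ± 8.31 RPKM (reads per kilobase of exon, scaled for depth; SD, n = 3), and only 5.04% of the tested genes were as high. Dnmt1 followed with 14.3 ± 0.791 RPKM, Uhrf2 with 8.92 ± 0.361 RPKM and Tet3 with 8.08 ± 1.61 RPKM. The Ctr ranges of Uhrf2 and Tet3 overlapped, so these neighbours could not be ordered, while those of all other neighbours were apart. Tet2 had 3.56 ± 0.342 RPKM and Uhrf1 2.21 ± 0.859 RPKM, and the highest Ctr value of Uhrf1 lay below the lowest of Tet2. Dnmt3b had 0.241 ± 0.0806 RPKM and Tet1 0.00997 ± 0.00710 RPKM. Dnmt3a was thus the abundant de novo mRNA in Ctr cells, with Dnmt3b scarce, at 25 to 40 reads per library, and Tet1 close to the limit of detection. Per length, Dnmt3a made up 63.3% ± 3.70 of the summed RPKM of the 8 genes.

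**Figure D1:**
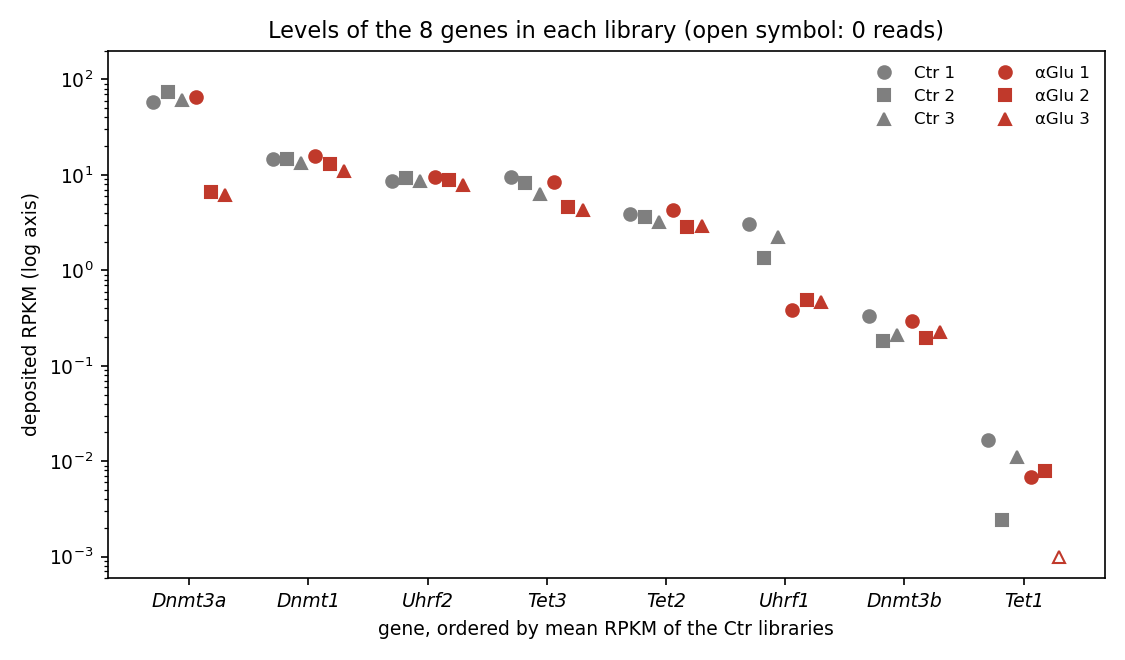
Deposited RPKM of the 8 genes in each of the 3 Ctr (grey) and 3 αGlu (red) libraries, on a log axis, with genes in the order of their Ctr mean. Dnmt3a stands at 64.8 RPKM in αGlu 1, and at 6.64 and 6.19 RPKM in αGlu 2 and αGlu 3, and Uhrf1 is below every Ctr library in all 3 αGlu libraries.

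The first comparison asked whether blocking the fragment changed the maintenance genes. Uhrf1 (ENSMUSG00000001228, chr17:56303321-56323486, plus strand, GRCm38) stood at 13.9, 6.39 and 10.4 CPM in Ctr 1, 2 and 3. It stood at 1.78, 2.14 and 1.98 CPM in αGlu 1, 2 and 3, from 31, 68 and 54 reads. The groups did not overlap, and the αGlu libraries were closer to each other than the Ctr libraries were. The αGlu level was 0.193 times that of Ctr, a log2 fold change of -2.37 ± 0.31 (SE). With a p of 0.000254 and an adjusted p of 0.149 by edgeR's quasi-likelihood test with Benjamini-Hochberg adjustment over 11933 genes, Uhrf1 did not pass the limit of 0.1. It was called by DESeq2 (adjusted p 2.20e-08), by edgeR's likelihood-ratio test (1.68e-07) and by the quasi-likelihood test without αGlu 1 (0.00340), and its adjusted p ranged from 2.20e-08 to 0.427 over 13 alternatives.

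Dnmt1 (ENSMUSG00000004099, chr9:20907209-20959888, minus strand), the partner that UHRF1 recruits, differed far less. It stood at 117, 122 and 108 CPM in Ctr, compared with 128, 99.2 and 81.0 CPM in αGlu. The groups overlapped, with αGlu 1 above all Ctr libraries and αGlu 2 and 3 below them. Its log2 fold change was -0.17 ± 0.17 (edgeR quasi-likelihood, adjusted p 0.535). Without αGlu 1 it was -0.37 ± 0.11 at an adjusted p of 0.0448, short of the fold limit of 1 on the log2 scale.

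The balance within the maintenance pair differed accordingly. The ratio of Uhrf1 to Dnmt1 in RPKM was 0.206, 0.0904 and 0.167 in Ctr and 0.0241, 0.0374 and 0.0423 in αGlu, with no overlap. Uhrf2 (ENSMUSG00000024817, chr19:30030513-30093722, plus strand) stood at 80.3, 90.2 and 81.3 CPM in Ctr, compared with 88.9, 77.6 and 67.2 CPM in αGlu. These groups overlapped and the log2 fold change was -0.11 ± 0.12 (edgeR quasi-likelihood, adjusted p 0.582), and -0.22 ± 0.098 without αGlu 1 (0.128). Uhrf2 thus exceeded Uhrf1 by 2.86, 6.99 and 3.88 times per length in Ctr and by 24.8, 17.98 and 16.8 times in αGlu.

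**Figure D2:**
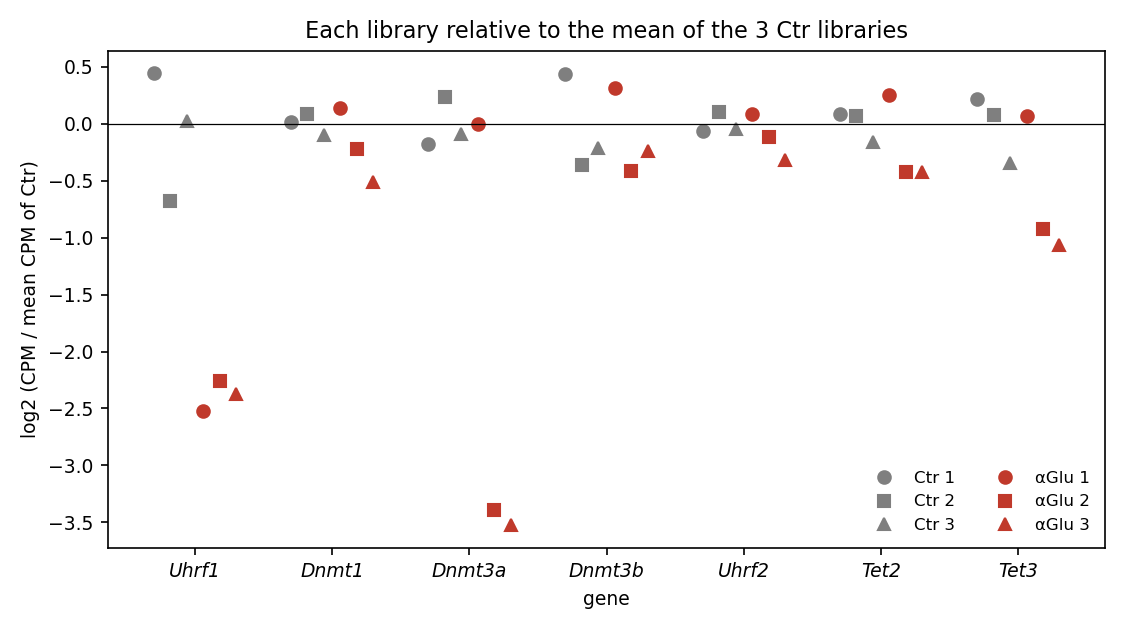
Level of each tested gene in each library as log2 of its CPM over the mean of the 3 Ctr libraries (grey, Ctr; red, αGlu; circle, square and triangle for libraries 1, 2 and 3). Uhrf1 is low in all αGlu libraries, from 1.78 to 2.14 CPM, whereas Dnmt3a and Tet3 are low in αGlu 2 and 3 and within the Ctr range in αGlu 1.

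The de novo genes showed a different pattern. Dnmt3a (ENSMUSG00000020661, chr12:3806007-3914443, plus strand) stood at 1044, 1390 and 1113 CPM in Ctr. In αGlu 1 it was at 1181 CPM, inside the Ctr range, and in αGlu 2 and αGlu 3 at 113 and 103 CPM, from 3584 and 2800 reads. One αGlu library thus held the Ctr level and the others 0.0954 and 0.0869 times the Ctr mean, and the log2 fold change over all 6 libraries, -1.34 ± 0.99, did not pass the test (edgeR quasi-likelihood, adjusted p 0.400). Without αGlu 1, Dnmt3a fell by 3.46 ± 0.17 on the log2 scale (adjusted p 4.64e-05, 0.0909 times the Ctr level), and 2.05% of 12340 genes had a log2 fold change as low. In all 6 libraries 4.4% of 11933 genes were as low as Dnmt3a. The adjusted p of Dnmt3a ranged from 4.64e-05 to 0.682 over 13 alternatives. Dnmt3a went from rank 602 of 11933 genes by RPKM in αGlu 1 to ranks 5176 and 5440 in αGlu 2 and 3.

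An antisense gene inside the Dnmt3a locus, Dnmt3aos, is transcribed from the other strand and shares exonic bases with it. It had 314, 457 and 329 reads in Ctr and 203, 26 and 15 reads in αGlu, at most a small part of the reads of Dnmt3a. The sources used here do not say whether the counting used strand, and reads of the pair cannot be told apart with certainty. The genes that overlap the other members had at most 2 reads in all.

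Dnmt3b (ENSMUSG00000027478, chr2:153649450-153687730, plus strand) was scarce, with 40, 25 and 25 reads in Ctr and 29, 32 and 31 reads in αGlu. These corresponded to 1.82, 1.04 and 1.16 CPM in Ctr and to 1.66, 1.01 and 1.14 CPM in αGlu, which overlapped. The log2 fold change was -0.09 ± 0.34 (edgeR quasi-likelihood, adjusted p 0.873), so that a difference smaller than the counting noise of about 30 reads was not detectable. The ratio of both enzymes followed Dnmt3a. Dnmt3a exceeded Dnmt3b by 218 times in αGlu 1 and by 34.4 and 27.7 times in αGlu 2 and 3, compared with 176 to 408 times in Ctr. The summed RPKM of all 8 genes was 95.5 to 112 in Ctr, 103 in αGlu 1, and 36.8 and 32.9 in αGlu 2 and 3, of which Dnmt3a made up 62.6%, 18.1% and 18.8%. In αGlu 2 and 3 Dnmt1 was the most abundant of the 8 genes, at 13.2 RPKM in αGlu 2.

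Among the oxidizing enzymes, Tet3 (ENSMUSG00000034832, chr6:83362373-83459084, minus strand) stood at 171, 156 and 116 CPM in Ctr, compared with 155, 77.9 and 70.7 CPM in αGlu. αGlu 1 lay within the Ctr range and the other two below it, as for Dnmt3a but with a smaller difference. The log2 fold change was -0.55 ± 0.34 (edgeR quasi-likelihood, adjusted p 0.332). Without αGlu 1 it was -0.99 ± 0.17 at an adjusted p of 0.00553, just short of the fold limit of 1.

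Tet2 (ENSMUSG00000040943, chr3:133463679-133545139, minus strand) stood at 69.8, 68.8 and 58.7 CPM in Ctr, compared with 78.5, 49.0 and 48.97 CPM in αGlu. αGlu 1 was the highest of the 6 libraries and αGlu 2 and 3 the lowest. The log2 fold change was -0.16 ± 0.21 (edgeR quasi-likelihood, adjusted p 0.628), and -0.43 ± 0.096 without αGlu 1 (0.0142), again under the fold limit. Tet1 (ENSMUSG00000047146, chr10:62804570-62908996, minus strand), which is best known from embryonic stem cells, was nearly silent. It had 6, 1 and 4 reads in Ctr and 2, 4 and 0 reads in αGlu and was not tested. The ratio of its summed CPM, αGlu over Ctr, was 0.481 with an exact 95% interval of 0.146 to 1.42, which covers counting error only, and the 0 reads of αGlu 3 allow up to 0.110 CPM.

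Of the 7 members tested, 0 were called in the comparison of all 6 libraries, as were 0 of 11933 genes (0%), although 2943 genes (24.7%) had an unadjusted p under 0.05. limma-voom also called 0 genes, DESeq2 1117 (8.13%) and the likelihood-ratio test 899 (7.53%), and by DESeq2 and the likelihood-ratio test Uhrf1 alone was called among the members. Uhrf1 was also the 1 member whose groups did not overlap, a pattern found in 30.2% of genes in either direction and in 15.9% with αGlu lower. Its log2 fold change was among the lowest, with 152 genes (1.27%) as low, and 502 of 12340 genes (4.07%) without αGlu 1. Without αGlu 1 the test called 2290 of 12340 genes (18.6%, made up of 10.5% lower and 8.05% higher), which included Uhrf1 and Dnmt3a. Groups then did not overlap for 6 of the 7 members, all lower, compared with 32.2% of genes that were lower. The library size alone, in place of TMM, shifted the median of all genes from 0.016 to 0.10 on the log2 scale, and the 7 members kept their direction.

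**Figure D3:**
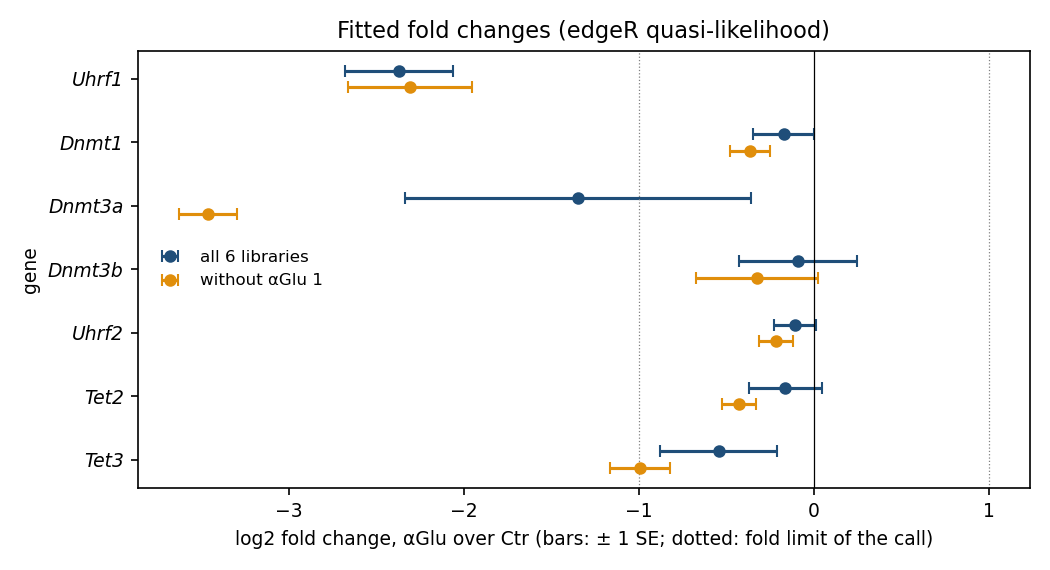
Log2 fold change of the 7 tested genes, αGlu over Ctr, with bars of 1 SE, for all 6 libraries (blue) and without αGlu 1 (orange). Uhrf1 stays near its value (-2.37 and -2.31), Dnmt3a moves from -1.34 to -3.46 and Tet3 from -0.55 to -0.99.

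Other genes of the pathway were described from lists. Of 12 partners of maintenance methylation, all were tested, and the groups did not overlap for 5 that were lower and 2 that were higher in αGlu, compared with 15.9% of all genes lower and 14.2% higher. The median log2 fold change was -0.37, compared with 0.016 over all genes. None was called in all 6 libraries. Cdca7, which helps the remodeler HELLS to open chromatin for methylation, stood at 2.00, 1.80 and 2.64 CPM in Ctr, compared with 0.803, 0.378 and 0.293 CPM in αGlu (log2 fold change -2.17 ± 0.43, edgeR quasi-likelihood adjusted p 0.149). Lig1, the ligase that joins newly made DNA and binds UHRF1, stood at 16.4, 12.9 and 13.5 CPM in Ctr, compared with 7.97, 8.66 and 7.34 CPM in αGlu (-0.83 ± 0.13, adjusted p 0.149). Both were lower in every αGlu library, αGlu 1 included. The 2 that were higher were Hdac1 (log2 fold change 0.58) and Dmap1 (0.26), so the list did not move as a whole. Without αGlu 1, Cdca7, Cdca7l, Pclaf and Pcna fell and none of the 12 rose, compared with 10.5% and 8.05% of all genes. Pclaf stood at 0.0315 and 0.220 CPM in αGlu 2 and 3. Both Pclaf and Cdca7 passed the filter of that fit only through Ctr libraries, which favoured their calls as lower. Pcna encodes the sliding clamp of DNA replication and Pclaf a protein that binds it.

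The lists of guides and readers differed little. Of 11 partners and chromatin guides of de novo methylation, 9 were tested, with a median of 0.027. Of these, 1 was lower and 1 higher without overlap, compared with 15.9% and 14.2% of all genes. Kdm2b, which binds unmethylated CpG islands, had a log2 fold change of -0.38 ± 0.092 and Setd2, which sets the histone mark that DNMT3A and DNMT3B read in gene bodies, of 0.13 ± 0.066 (edgeR quasi-likelihood, adjusted p 0.156 and 0.269). Dnmt3l, the cofactor of both enzymes in germ cells, had at most 0.283 CPM. Of 8 readers of methylated CpG, 0 were lower and 1 higher without overlap, with a median of 0.075. The leading readers were Zbtb38 at 0.19 ± 0.083 and Mbd2 at 0.19 ± 0.12 (adjusted p 0.223 and 0.360). None of these genes was called without αGlu 1 either, compared with 18.6% of all genes.

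Of 15 TET partners and enzymes of base excision repair, 14 were tested, with a median of -0.19. Of these, 3 were lower and 1 higher without overlap, compared with 15.9% and 14.2% of all genes. Apex1, the nuclease that cuts at the site left by a removed base, had a log2 fold change of -0.39 ± 0.095 and Neil1, a glycosylase, of 0.63 ± 0.16 (edgeR quasi-likelihood, adjusted p 0.156 for each). Without αGlu 1, Cxxc5, Gadd45b and Gadd45g fell, as did 10.5% of all genes. At 0.346 and 0.220 CPM in αGlu 2 and 3, Cxxc5 passed the filter of that fit only through Ctr libraries. This favoured its call as lower, which lay close to both limits (log2 fold change -1.01, edgeR quasi-likelihood adjusted p 0.0932). Gadd45g stood at 22.9, 25.4 and 22.5 CPM in Ctr, compared with 21.6, 3.59 and 1.91 CPM in αGlu, that is with αGlu 1 beside the Ctr libraries. Of 10 enzymes that supply the methyl donor or handle 2-oxoglutarate, the cosubstrate of TET enzymes, 2 were lower and 1 higher without overlap, with a median of -0.16. Idh2 and Mat2a had log2 fold changes of -0.33 ± 0.090 and -0.29 ± 0.092 (adjusted p 0.157 and 0.163), and without αGlu 1 Idh1 fell. Trdmt1, which resembles the DNA methyltransferases in sequence but methylates tRNA, had a log2 fold change of 0.26 and overlapping groups.

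**Figure D4:**
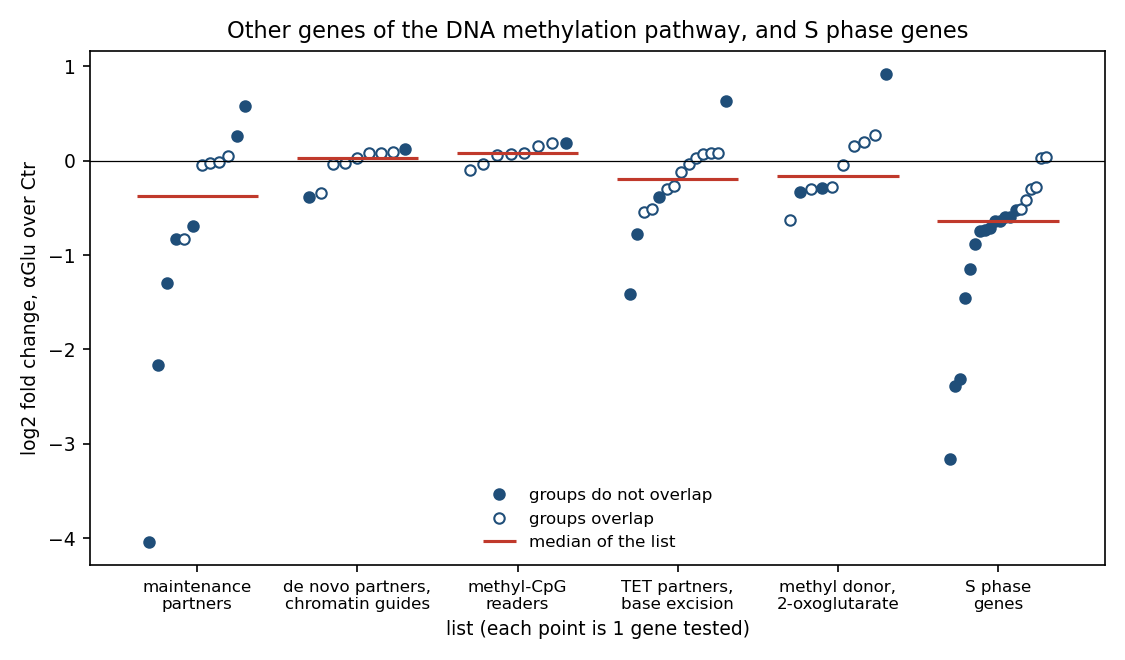
Log2 fold change, αGlu over Ctr in all 6 libraries, of each tested gene of the pathway lists and of the S phase list (filled, groups do not overlap; open, groups overlap; red line, median). Medians are -0.37 for maintenance partners, 0.027 for de novo partners, 0.075 for readers and -0.64 for S phase genes.

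Because Uhrf1 is a gene of dividing cells, 20 genes of S phase were set beside it. The groups did not overlap for 14 of them, all lower in αGlu, compared with 15.9% of all genes, and the median log2 fold change was -0.64. Rrm2, a subunit of the enzyme that makes deoxynucleotides, stood at 12.6, 4.35 and 8.86 CPM in Ctr, compared with 0.746, 1.04 and 1.06 CPM in αGlu (log2 fold change -3.16, edgeR quasi-likelihood adjusted p 0.149). Mcm7, part of the replicative helicase, had a log2 fold change of -1.15. The mean log2 CPM of the list was 3.76, 3.34 and 3.55 in Ctr and 2.70, 2.65 and 2.68 in αGlu, so that the 3 αGlu libraries were alike. Uhrf1 shared with the mean of the list the low level in αGlu 1 and the order of the Ctr libraries, Ctr 1 highest and Ctr 2 lowest. Dnmt1 and Dnmt3a shared neither. The order held for 12 of the 20 genes, and its share over all genes was not counted. It was not particular to S phase genes, as Sqle, Idi1 and Cyp51, enzymes of cholesterol synthesis, had the same order and low levels in αGlu 1. Without αGlu 1, 17 of the 20 genes were lower without overlap (32.2% of all genes), and Cdc6, Mcm5, Mcm7, Rrm2 and Tk1 fell (10.5% of all genes). The part of cell division in the difference of Uhrf1 was not tested.

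**Figure D5:**
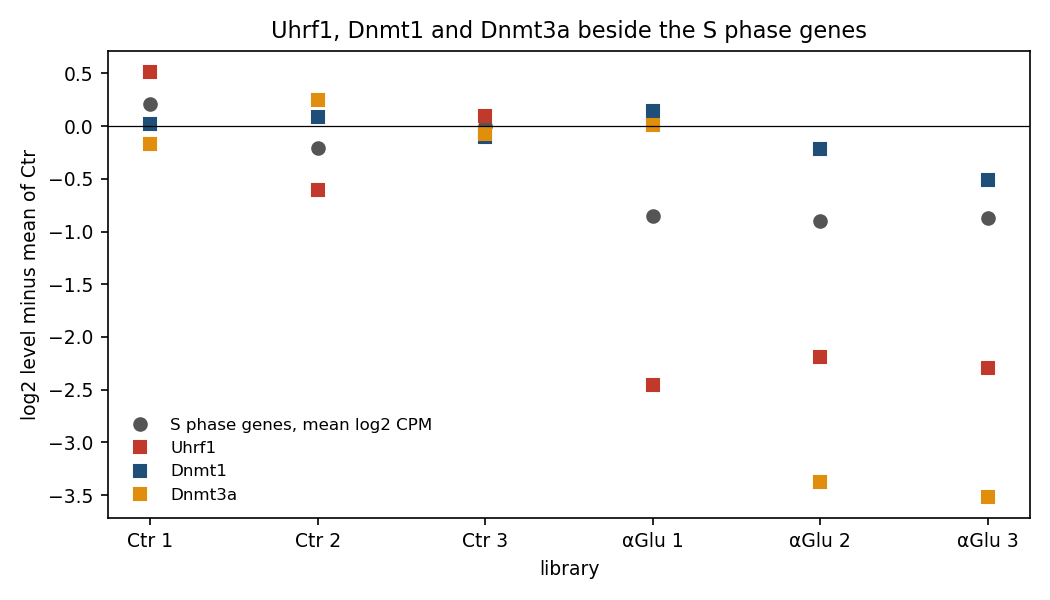
Log2 level of Uhrf1, Dnmt1 and Dnmt3a (squares) and mean log2 CPM of 20 S phase genes (grey circles) in each library, each minus its mean over the 3 Ctr libraries. A prior count of 2, added before taking the log, was used for the S phase genes and not for the single genes. The sizes of both are thus not strictly comparable. The S phase genes lie 0.85 to 0.90 below Ctr in all αGlu libraries and Uhrf1 2.19 to 2.45 below, whereas Dnmt3a lies 3.38 and 3.51 below in αGlu 2 and 3 and 0.0098 above in αGlu 1.

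Markers of immature myeloid cells were measured beside these values. The summed level of 8 progenitor markers was 7.86, 6.48 and 4.92 CPM in Ctr and 4.59, 1.98 and 1.47 CPM in αGlu, without overlap but with αGlu 1 close to Ctr 3, and 4 of the 8 were tested. Kit, the stem cell factor receptor, had a log2 fold change of -1.56 and Cd34 one of -1.45 (edgeR quasi-likelihood, adjusted p 0.159 and 0.174). Kit and Mpo fell without αGlu 1, as did 10.5% of all genes. At 0.0944 and 0.0367 CPM in αGlu 2 and 3, Mpo passed the filter of that fit only through Ctr libraries. This favoured its call as lower. Fibroblast markers summed to 2.01 to 7.95 CPM in Ctr and to 2.14 to 3.15 CPM in αGlu, and of the 3 tested Dcn had a log2 fold change of 1.03, Pdgfrb, the median, of 0.75 and Col1a2 of -1.91. Without αGlu 1 the collagen gene Col1a2 fell, whereas Dcn had 1.22 and Pdgfrb 1.10 (edgeR quasi-likelihood, adjusted p 0.176 and 0.108). The collagen genes Col1a1 and Col3a1 passed the filter only in that fit and only through Ctr libraries. Col1a2, at 0.157 and 0 CPM in αGlu 2 and 3, also passed it there only through Ctr libraries. The calls of these collagen genes as lower were thus favoured by the filter itself. Of the neutrophil markers, Csf3r and S100a8 rose without αGlu 1, as did 8.05% of all genes. Ngp and S100a9 likewise passed the filter only in that fit, through Ctr libraries alone, which favoured their call as lower. Of the 8 macrophage markers, 6 had log2 fold changes above 0 and 2 below, with a median of 0.48. Mrc1 and Adgre1 had 0.85 and 0.52, and Cd68 and Mertk -0.44 and -0.08. Without αGlu 1, Itgam and Mrc1 rose, while Cd68 had -0.73 and Mertk -0.22 (edgeR quasi-likelihood, adjusted p 0.00289 and 0.0473), under the fold limit. The part of cell composition in the differences of Uhrf1 and Dnmt3a was not tested.

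Genes whose silence depends on promoter methylation in many tissues gave a further readout of mRNA. Of 17 germline genes of this kind, 9 had 0 reads in all libraries, and 2 were tested. Ddx4, an RNA helicase of germ cells, stood at 1.36, 5.77 and 4.96 CPM in Ctr, compared with 2.35, 0.535 and 0.770 CPM in αGlu (log2 fold change -1.77), and Brdt, a bromodomain protein of the testis, had a log2 fold change of 0.23, both with overlapping groups. Of 18 imprinted genes, 6 were tested and all 6 had log2 fold changes below 0. Groups did not overlap for 2, Impact (-0.40) and Zrsr1 (-0.25), compared with 15.9% of all genes that were lower. Snrpn, Nnat and Nap1l5 had 0 reads. Without αGlu 1, Ddx4, Cdkn1c and Plagl1 fell, as did 10.5% of all genes. At 0.0944 and 0.220 CPM in αGlu 2 and 3, Plagl1 passed the filter of that fit only through Ctr libraries. This favoured its call as lower. Peg10 stood at no more than 0.182 CPM in Ctr, at 0 reads in αGlu 1 and at 1.13 and 1.25 CPM in αGlu 2 and 3. It passed the filter only without αGlu 1 and only through αGlu 2 and 3, which favoured its call as higher. Neither of the germline genes tested was higher in all 3 αGlu libraries than in Ctr.

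For each tested member the genes with the most similar profile were sought among 8577 genes (those whose log2 CPM averaged 3 or more), as the root mean square (RMS) distance of centred log2 CPM over the 6 libraries. The nearest to Uhrf1 were Sqle (RMS 0.289), Idi1 (0.342) and Cyp51 (0.359), all enzymes of cholesterol synthesis. Sqle stood at 64.4, 28.3 and 31.2 CPM in Ctr, compared with 9.23, 10.7 and 11.6 CPM in αGlu. The nearest to Dnmt3a were Anxa1 (0.135), Adgre5 (0.200) and Plk2 (0.204). Anxa1, an annexin that dampens inflammation, stood at 2999, 4163 and 3455 CPM in Ctr, compared with 2779, 294 and 271 CPM in αGlu. Tet3 was closest to Tsc1 (0.042), Piezo1 and Dip2b, Tet2 to Emc1, Dhx34 and Tecpr2, and Dnmt1 to Ctif, Zfp219 and Igsf8. For Uhrf2 they were Card19, Tmem115 and Itpkc, and for Dnmt3b, whose profile is mostly counting noise, Aatk, Zbtb20 and Irs2. Such likeness over 6 libraries is a description only.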

How the data were processed

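mRNA was measured in 6 libraries made with an Illumina stranded mRNA kit and sequenced on a NovaSeq instrument. Reads were processed by the authors in QIAGEN's RNA-seq Analysis Portal. The submitters' processing notes name GRCm38. The aligner, the annotation, the use of strand and the treatment of multi-mapping reads are not given in the sources used here. Per gene, the deposited counts are raw whole numbers of reads. The authors scaled RPKM for exon length and depth, and deposited TPM with the same total in every library. The 6 deposited columns of normalized CPM were not used, and 1 row without a gene name was left out.

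Counts were filtered with filterByExpr (minimum count 10, minimum total 15) and fitted over all genes with edgeR 4.0.16 (R 4.3.3), TMM factors and a two-sided quasi-likelihood test. A gene was called when its Benjamini-Hochberg adjusted p was under 0.1 with a log2 fold change above 1 in either direction. "Rose" and "fell" are used of calls, and groups do not overlap when all αGlu libraries lie on one side of all Ctr libraries in CPM. The SE is the log2 fold change over the root of its F statistic, and CPM uses TMM-adjusted library sizes. Log2 CPM has a prior count of 2, but log2 levels of single genes in the figures have none. The fits were tested on simulated data. Alternatives were DESeq2 1.42.0, limma-voom (limma 3.58.1), a likelihood-ratio test, other factors, filters and limits, the library number as a block, and each library left out. Gene positions are from GENCODE M21 and promoters from RefSeq. The members, lists and tests were chosen with earlier results of these data known. The text names all members, the 2 genes of smallest p in each list and genes called without αGlu 1. It also names the 3 nearest profiles of each member. Gadd45g, Peg10, Dnmt3aos, Dnmt3l, Hdac1 and Dmap1 were chosen after their values were seen. The values of 1 gene of the lists are not reported here.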

Additional observations from a re-analysis of the deposited data

How the results depend on the processing

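No member was called in all 6 libraries, nor with limma-voom, RLE factors, library size alone, no filter, no fold limit, an adjusted p under 0.05 or the replicate block. DESeq2 called 1 member and 1117 genes, the likelihood-ratio test 1 member and 899 genes, and leaving out 1 library gave from 0 to 2 members and from 0 to 2290 genes, with the highest numbers in the absence of αGlu 1 and 0 in the absence of any other library. Uhrf1 kept a log2 fold change of -2.62 to -2.08 when a library was left out. Dnmt3a ranged from -3.46 to -0.87 and Tet3 from -0.99 to -0.34, with the lowest values of both in the absence of αGlu 1. Dnmt3b ranged from -0.33 to 0.20, with 0.20 without Ctr 1 and 0.057 without αGlu 2, at 25 to 40 reads per library. Groups did not overlap for 1 to 6 members when a library was left out, a check added after seeing the data. The count was 2 without Ctr 3, where Tet3 joined Uhrf1 and 42.0% of all genes did not overlap (20.9% lower), and 6 without αGlu 1, where 65.8% did not (32.2% lower). The cause of the difference between αGlu 1 and the other αGlu libraries was not tested.

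Same-numbered libraries deviated together at r of 0.076, 0.065 and 0.15 across genes, not all above 0.1, so that the numbers were not taken to pair the libraries. Each library correlated best with its own number, a hint of pairing from the data and not from the labels. For the level of the fragment by qPCR in such Mφs, the study compared αGlu with Ctr by a paired test. It does not say whether the sequenced libraries were paired. With the replicate block 17 genes and 0 members were called. Uhrf1 had -2.30 (adjusted p 0.135), Dnmt3a -2.44 (0.246) and Tet3 -0.62 (0.192). Depth limits the statements on Tet1 and Dnmt3b. As shares of CPM, which ignores length, in place of RPKM, Dnmt3a made up 73.4% of the 8 genes.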
